A study of Homo sapiens with 12 samples.

Results

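TET2, DNMT3A, IDH1, IDH2, EZH2, KDM6A, ASXL1, BCOR, PHF6 and STAG2 are chromatin, DNA methylation and cohesin genes that recur among the mutated genes of myelodysplastic syndrome, in which a mutated clone of marrow cells makes blood poorly. They were taken by symbol from a deposited table of RNA sequencing counts that lists 17518 genes, and all 10 had enough counts to be among the 13625 genes tested. The lines used, MUTZ-1 and SKM-1, are human and were grown in the same medium with serum. Both are labelled as myelodysplastic syndrome cells from marrow. In each line, 3 libraries were sequenced from cells carrying a control hairpin (shRNA) and 3 from cells whose shRNA targets NUDT21, 12 libraries in all, to ask what the loss of NUDT21 does to gene expression. The genotype of the control cells is labelled WT, and neither the hairpin sequences nor whether a line was a pool or 1 clone are given in the sources used here. Nothing in the labels says that the replicates were separate cultures, so the p-values rest on a spread between libraries that may be technical. Counts of transcripts do not show whether any of the 10 genes carries a mutation in either line.

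The 10 genes act in linked layers of chromatin control. DNMT3A writes 5-methylcytosine and TET2 oxidises it, using alpha-ketoglutarate that IDH1 and IDH2 make from isocitrate. EZH2 is the catalytic subunit of Polycomb repressive complex 2 (PRC2), which methylates lysine 27 of histone H3, and KDM6A removes that mark. ASXL1 is a cofactor of the deubiquitinase BAP1, BCOR belongs to a Polycomb repressive complex 1 (PRC1) variant, PHF6 is a zinc finger protein that binds the NuRD remodelling complex, and STAG2 is a subunit of the cohesin ring. In myelodysplastic syndrome most mutations of TET2, EZH2, BCOR, PHF6, KDM6A and STAG2 cost function, while those of IDH1 and IDH2 change the reaction so that the product is 2-hydroxyglutarate. NUDT21 is the UGUA-binding subunit of cleavage factor Im, which contacts that motif in nascent RNA upstream of poly(A) sites.

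The sequences at both ends of these genes are shown first, because NUDT21 acts at the 3' end and among the 10 genes the largest fall and rise in SKM-1 were those of TET2 and EZH2. The RefSeq promoter table (GRCh38.p14, 250 bases before to 50 after the start) matched 9 of the 10 genes by symbol, all but PHF6. The promoters of TET2, which fell most of the 10 genes in SKM-1, and of EZH2, which rose most of them there, follow 5′ to 3′ with every CpG, the site that DNMT3A methylates and TET2 acts on, in capitals.
TET2, chr4:105145625-105145924, plus strand: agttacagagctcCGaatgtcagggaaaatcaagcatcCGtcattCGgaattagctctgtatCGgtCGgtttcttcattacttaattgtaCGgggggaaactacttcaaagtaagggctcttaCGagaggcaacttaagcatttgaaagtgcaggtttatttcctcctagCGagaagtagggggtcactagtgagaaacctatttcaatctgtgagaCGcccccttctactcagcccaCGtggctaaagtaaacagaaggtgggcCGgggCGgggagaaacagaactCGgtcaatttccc
EZH2, chr7:148884242-148884541, minus strand: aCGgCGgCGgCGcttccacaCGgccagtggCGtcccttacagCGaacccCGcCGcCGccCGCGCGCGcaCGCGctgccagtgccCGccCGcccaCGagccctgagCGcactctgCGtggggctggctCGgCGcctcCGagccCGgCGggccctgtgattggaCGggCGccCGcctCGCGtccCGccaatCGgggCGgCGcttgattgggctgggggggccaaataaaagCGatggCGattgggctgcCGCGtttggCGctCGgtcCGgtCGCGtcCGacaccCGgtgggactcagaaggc
The stretch of TET2 held 13 CpG and that of EZH2 46, against a median of 26 over the promoters of 10975 tested genes, of which 17.3% had fewer than TET2 and 95.3% fewer than EZH2. The other 7 ran from 6 in IDH2 and 7 in BCOR to 34 in STAG2. The windows of IDH1, IDH2 and STAG2 lie inside the gene bounds given below, that of STAG2 close to the bound. Their counts belong to the start in the RefSeq table and not to the outermost start of the gene. A search of both strands for CCAAT found 4 matches in EZH2, 2 in KDM6A and 1 in STAG2, while 36.8% of all these promoters had at least 1. These are letters in a window and not measured sites.

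At the 3' end, the last 100 bases of the principal coding transcript in GENCODE release 29 (GRCh38) were searched on the sense strand for TGTA, the DNA form of UGUA. The motif stood at least 1 time in 8 of the 10 genes, all but TET2 and IDH1, and at least 2 times in BCOR and PHF6. Among 12680 tested genes with such a transcript, 54.2% had at least 1 and 21.0% at least 2. A poly(A) signal, AATAAA or ATTAAA, stood in the last 40 bases of 75.8% of them. It was absent there in TET2 and DNMT3A. In DNMT3A an AATAAA lies shortly before those 40 bases, as the last bases of the stretch printed below. The annotated end of TET2 may not be a used site, and the use of any of these ends was not tested. In STAG2 the TGTA lies after AATAAA. For the pair with 2 matches, and for the 3 others with a match whose changes in SKM-1 were largest, 30 bases are given 5′ to 3′ with TGTA in capitals.
BCOR, chrX:40051304-40051333, minus strand: TGTAagtaaattctctgccttTGTAtttat
PHF6, chrX:134428713-134428742, plus strand: TGTAgttTGTAgtattagtttccttttatt
STAG2, chrX:124102627-124102656, plus strand: tttaataaatcataTGTAtttacaatgaaa
EZH2, chr7:148807427-148807456, minus strand: TGTAccagtgaatttttgcaataatgcagt
DNMT3A, chr2:25227901-25227930, minus strand: TGTActtgtgctggagaacacttgaataaa
Gene-level counts carry no record of the poly(A) site chosen, so no value below can be read as a shift along these ends.

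Depth was even, at 15843012 to 18426619 counts per library, and levels are given as depth-scaled counts (CPM) after TMM scaling, as mean ± SD of 3 libraries (n = 3). NUDT21 itself stood at 301, 297 and 301 CPM in the 3 MUTZ-1 controls and at 135, 136 and 142 CPM in the knockdown libraries, and at 322, 336 and 344 CPM and then 131, 132 and 129 CPM in SKM-1. It thus fell to 46.1% of control in MUTZ-1 and to 39.2% in SKM-1, which fits the labels. Markers of blood lineages set the lines apart: all 10 B-lineage markers looked at reached 1 CPM in MUTZ-1 controls, with a sum of 2292 to 2298 CPM, against 6.40 to 9.48 CPM in SKM-1 controls. Of 10 myeloid markers, 4 reached 1 CPM in the controls of each line, and MPO was at 0 in MUTZ-1 and in the knockdown libraries of SKM-1. Within SKM-1, summed erythroid markers stood at 915.6 to 929.5 CPM in controls and 3280.3 to 3458.7 after knockdown. Keratins and other markers of tissues outside blood summed to 431.6 to 438.2 and then 777.6 to 804.3, but not all of them rose. KRT8 went from 191.5 to 333.6 CPM, while COL3A1 fell from 46.2 to 1.75 and COL1A1 from 9.69 to 1.86. Summed myeloid markers stood at 29.2 to 32.6 and then 96.7 to 106. In MUTZ-1 the erythroid sum went from 742.3 to 763.3 down to 313.8 to 318.7. TFRC made up most of it, with means of 736.2 CPM in controls and 291.4 after knockdown. The B-lineage sum there went from 2292 to 2298 down to 1983 to 2036, but its members did not all fall. MS4A1 went from 187 to 23.2 CPM and CD79B from 630 to 572, while CD22 rose from 214 to 257. The part of these shifts in the changes of the 10 genes was not tested.

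A further shift in SKM-1 ran along whole chromosomes. The median log2 fold change after knockdown over all tested genes of a chromosome was -0.47 on X (497 genes), -0.39 on 4, -0.23 on 2, -0.20 on 20, 0.04 on 15 and 0.34 on 7, the chromosomes that carry the 10 genes. In MUTZ-1 these medians lay between -0.02 and 0.02. The labels tie the cells of a group to no independent populations, so the loss of NUDT21 cannot be told apart from other differences between control and knockdown cells of a line. The value of each gene relative to its chromosome is given beside its change in SKM-1.

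By transcript level per length, EZH2 led in MUTZ-1 and IDH1 in SKM-1, and TET2 and DNMT3A were the lowest of the 10 in every group. FPKM (fragments scaled by gene length and library total), the deposited values that allow comparison between genes, were 53.3 ± 1.05 for EZH2 in MUTZ-1 controls, followed by 39.7 ± 1.15 for IDH2 and 36.4 ± 0.711 for STAG2. ASXL1 (23.3 ± 0.485), IDH1 (20.9 ± 1.76), PHF6 (20.2 ± 0.391), BCOR (15.8 ± 0.637) and KDM6A (11.1 ± 0.517) came next, ahead of TET2 at 3.3 ± 0.113 and DNMT3A at 1.64 ± 0.0698. The single libraries of IDH1 and PHF6 overlapped there, so those neighbours have no order. In SKM-1 controls the order began with IDH1 at 62.0 ± 1.91 FPKM, IDH2 at 46.0 ± 1.53 and STAG2 at 43.7 ± 0.72. PHF6 (32.8 ± 0.136) and BCOR (22.3 ± 0.946) preceded ASXL1 (20.8 ± 0.314) and EZH2 (20.7 ± 0.2), whose libraries overlapped, and KDM6A (8.46 ± 0.183), TET2 (7.98 ± 0.143) and DNMT3A (3.99 ± 0.0615) closed it. Among all tested genes, DNMT3A stood at the 32.0th percentile in MUTZ-1 controls and EZH2 at the 90.9th.

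**Figure D1:**
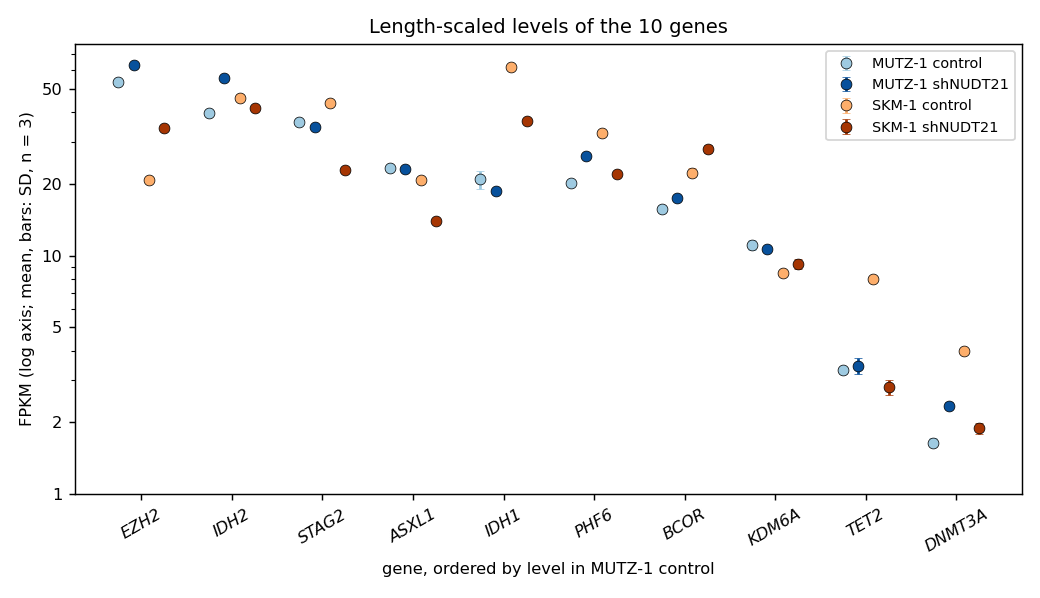
Levels per length of the 10 genes in FPKM on a log axis, mean with SD over 3 libraries, in the 4 groups by colour. TET2 and DNMT3A stand lowest in every group, and EZH2 goes from 53.3 in MUTZ-1 controls to 20.7 in SKM-1 controls.

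After knockdown the order changed in both lines. EZH2 (63.2 ± 0.997 FPKM), IDH2 (55.7 ± 1.22) and STAG2 (34.6 ± 0.434) kept the first places in MUTZ-1, and PHF6 (26.1 ± 0.318) stood above ASXL1 (23.1 ± 0.479). In SKM-1 knockdown libraries IDH2 came first at 41.6 ± 0.71 FPKM, then IDH1 at 36.6 ± 1.05 and EZH2 at 34.3 ± 0.379, with no overlap between neighbours. EZH2 thus went from rank 6 or 7, where its control libraries overlapped with those of ASXL1, to rank 3. STAG2, at 22.9 ± 0.722, went from rank 3 to rank 5.

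Compared between the control cells of the lines, EZH2, KDM6A and ASXL1 were higher in MUTZ-1, and the other 7 were higher in SKM-1. All 10 passed the edgeR test at an adjusted p under 0.05, as did 90.1% of all genes tested (41.4% higher in MUTZ-1, 48.8% lower), so the count is near the background. Changes of at least 2-fold numbered 4, against 45.7% of all genes: EZH2 was 2.83 times as high in MUTZ-1 (log2 difference 1.502 ± 0.03 SE, edgeR adjusted p = 6.26e-124), while IDH1 (-1.44 ± 0.04 SE, edgeR adjusted p = 1.26e-85), DNMT3A (-1.15 ± 0.07 SE, edgeR adjusted p = 2.17e-41) and TET2 (-1.14 ± 0.05 SE, edgeR adjusted p = 2.52e-57) stood at 36.9%, 45.2% and 45.4% of their SKM-1 level. Relative to the medians of their chromosomes these differences were 0.86 for EZH2, -1.16 for IDH1, -0.86 for DNMT3A and -0.91 for TET2, so that IDH1 alone of the 4 stayed past 2-fold, while KDM6A stood at 1.45. IDH2 was the one gene whose libraries overlapped between the lines, which 90.0% of all genes did not (112 ± 3.16 CPM in MUTZ-1 and 118 ± 3.97 CPM in SKM-1), and its call at -0.08 ± 0.03 SE, edgeR adjusted p = 0.0298, was lost in 3 of 21 alternative analyses. These were leaving out SKM-1 control 1 (-0.07) or control 3 (-0.06) and removing a trend with gene length (-0.05). BCOR, PHF6 and STAG2 were lower in MUTZ-1 (log2 differences -0.36 ± 0.03, -0.56 ± 0.03 and -0.13 ± 0.03), but higher than the median of chromosome X (-0.92) by 0.56, 0.36 and 0.80.

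**Figure D2:**
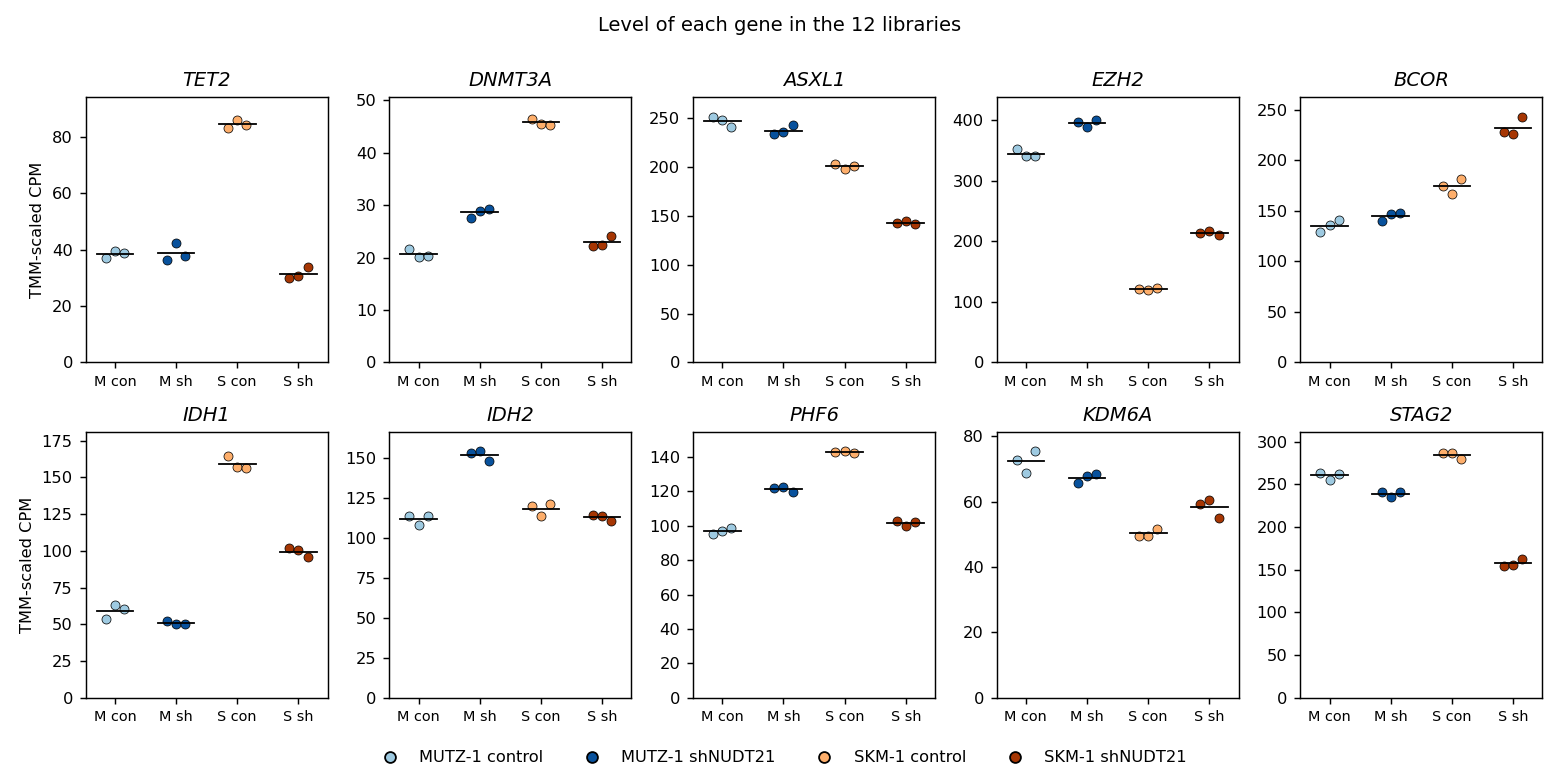
TMM-scaled CPM of each of the 10 genes in each library (points) with the mean of the group (line), for MUTZ-1 (M) and SKM-1 (S) control (con) and shNUDT21 (sh) cells. TET2 shows 3 SKM-1 controls at 83.1 to 86.1 CPM above the 9 other libraries, and EZH2 rises in both lines.

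NUDT21 knockdown went with 9 changes among the 10 genes in SKM-1 and with 8 in MUTZ-1, where 3 genes were called against their direction in SKM-1, KDM6A with a MUTZ-1 call that was lost in 13 of 21 alternatives. In SKM-1, TET2, DNMT3A, STAG2, IDH1, PHF6 and ASXL1 fell and EZH2, BCOR and KDM6A rose. In MUTZ-1, DNMT3A, IDH2, PHF6, EZH2 and BCOR rose and IDH1, STAG2 and KDM6A fell. The share of all tested genes called was 84.4% in SKM-1 (42.1% higher, 42.3% lower) and 49.0% in MUTZ-1 (24.4% higher, 24.6% lower), and the counts among the 10 genes are to be read against those shares. The median size of the log2 change over the 10 genes was 0.59 in SKM-1 against 0.69 over all genes, and 0.16 in MUTZ-1 against 0.20. A called change of at least 2-fold was seen for 1 of the 10 genes, TET2, in SKM-1 (35.1% of all genes) and for 0 in MUTZ-1 (4.75%), where 8 passed the same test without that bound. With scaling by library totals alone, 60.7% of all calls in MUTZ-1 were higher after knockdown in place of 49.8%.

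**Figure D3:**
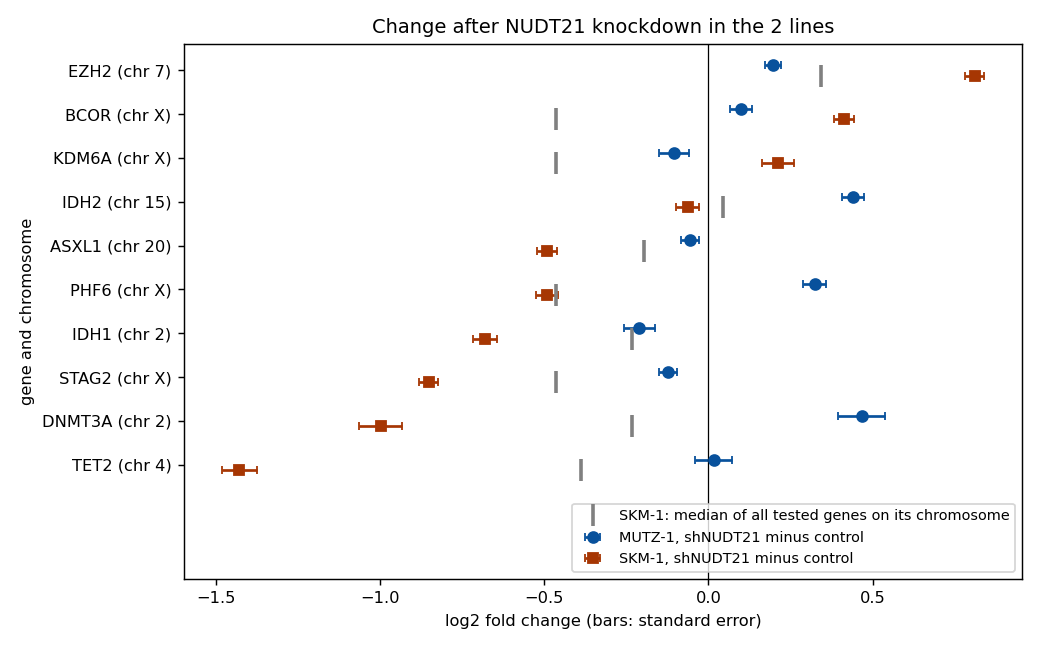
Log2 fold change after NUDT21 knockdown in MUTZ-1 (circles) and SKM-1 (squares) with standard errors, genes ordered by the change in SKM-1, and for SKM-1 the median change of all tested genes on the same chromosome (bars). TET2 lies at -1.43 in SKM-1 and 0.02 in MUTZ-1, and PHF6 in SKM-1 lies on the median of chromosome X.

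TET2, the dioxygenase that starts the removal of DNA methylation (chromosome 4, 105145875 to 105279816, plus strand, GRCh38 as are all positions here), showed the largest change of the 10 genes in SKM-1 and none that passed the test in MUTZ-1. It stood at 83.1, 86.1 and 84.2 CPM in SKM-1 controls and at 29.9, 30.5 and 33.8 CPM after knockdown. All 3 knockdown libraries lay far below the lowest control, at 37.1% of control with a 95% interval of 34.2% to 40.4% (log2 fold change -1.43 ± 0.05 SE, edgeR adjusted p = 3.18e-69). The median gene of chromosome 4 stood at -0.39 in this comparison, and relative to that median TET2 stood at -1.04. With a trend with gene length removed, the change of TET2 was -1.02. In MUTZ-1 the values were 36.9, 39.5 and 38.7 CPM in controls and 36.5, 42.2 and 37.8 CPM after knockdown, which overlapped (0.02 ± 0.06 SE, edgeR adjusted p = 0.871), with an interval of 92.4% to 111% of control. The SKM-1 knockdown libraries, at 31.4 ± 2.08 CPM, lay below every MUTZ-1 library of either condition, a comparison that was not tested.

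The paralogs of TET2 shared its fall only in part. TET3 went from 104 ± 3.68 CPM to 73.7 ± 1.46 CPM in SKM-1 (-0.50 ± 0.04 SE, edgeR adjusted p = 2.68e-24), a fall that turned to 0.07 once a trend with gene length was removed. TET1 did not pass the test there, at 102 ± 1.12 CPM and 98.8 ± 4.81 CPM (-0.04 ± 0.04 SE, edgeR adjusted p = 0.375), and stood at 0.59 after that correction. In FPKM summed over the 3 TET genes, the share of TET2 went from 36.5% to 20.5% in SKM-1 and that of TET1 went from 29.1% to 42.7%. In MUTZ-1 the share of TET2 was 30.02% and 31.1%, and TET3 held most of the sum (64.6% in controls).

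DNMT3A, a methyltransferase that sets new DNA methylation (chromosome 2, 25227855 to 25342590, minus strand), moved in opposite directions in the lines. SKM-1 controls had 46.5, 45.4 and 45.4 CPM and knockdown libraries 22.2, 22.4 and 24.2 CPM. The level fell to 50.1% of control with a 95% interval of 45.0% to 55.6% (-1.00 ± 0.07 SE, edgeR adjusted p = 1.14e-34), and relative to chromosome 2 it stood at -0.77. With the gene length trend removed the change was -0.54. In MUTZ-1 DNMT3A rose from 21.7, 20.1 and 20.2 CPM to 27.5, 28.9 and 29.3 CPM, with all knockdown libraries above all controls (0.47 ± 0.07 SE, edgeR adjusted p = 3.17e-09). The 2 knockdown groups ended at 28.6 ± 0.948 CPM and 22.9 ± 1.11 CPM, closer to each other than the controls were.

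Other genes of the methylation machinery rose in SKM-1. DNMT1, which copies methylation after replication, went from 269.7 ± 2.04 CPM to 436 ± 4.07 CPM (0.69 ± 0.02 SE, edgeR adjusted p = 9.15e-77), and DNMT3B, the close relative of DNMT3A, from 69.3 ± 2.19 CPM to 139 ± 2.02 CPM (1.00 ± 0.04 SE, edgeR adjusted p = 2.44e-63). UHRF1, which brings DNMT1 to hemimethylated DNA, rose from 74.5 ± 2.96 CPM to 161 ± 3.82 CPM. In MUTZ-1 DNMT1, DNMT3B and UHRF1 did not pass the test, at log2 fold changes of -0.04 ± 0.02, -0.08 ± 0.06 and -0.02 ± 0.03. In FPKM, DNMT3A made up 5.42% of the 3 catalytic DNMT genes in SKM-1 controls and 1.66% after knockdown, and 1.13% and 1.6% in MUTZ-1. Of 14 writers, readers and erasers of DNA methylation beside TET2 and DNMT3A, 9 rose and 3 fell in SKM-1, with a median of 0.20 against 0.00 over all genes. The largest fall was that of ZBTB33, which binds methylated DNA (126 to 44.8 CPM, -1.495 ± 0.04). In MUTZ-1 3 rose and 6 fell, with a median of -0.06.

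IDH1 (chromosome 2, 208236227 to 208266074, minus strand), the isocitrate dehydrogenase of the cytosol, fell in both lines, while the mitochondrial IDH2 (chromosome 15, 90083045 to 90102504, minus strand) rose in MUTZ-1 and did not pass the test in SKM-1. IDH1 stood at 165, 157 and 157 CPM in SKM-1 controls and 102, 101 and 96.1 CPM after knockdown, without overlap (-0.68 ± 0.04 SE, edgeR adjusted p = 1.56e-43), and at -0.45 relative to chromosome 2. In MUTZ-1 it went from 53.3, 62.9 and 60.6 CPM to 52.3, 50.5 and 49.9 CPM. The lowest control there lay just above the highest knockdown library, and the change was -0.21 ± 0.05 SE, edgeR adjusted p = 5.37e-05.

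IDH2 rose in MUTZ-1 from 114, 108 and 114 CPM to 153, 154 and 148 CPM, with a wide gap between the groups (0.44 ± 0.03 SE, edgeR adjusted p = 4.28e-27). In SKM-1 its libraries overlapped, at 119.8, 114 and 121 CPM and 115, 114 and 110.5 CPM (-0.06 ± 0.03 SE, edgeR adjusted p = 0.0807). That value passed the threshold in 14 of 21 alternative analyses, among them leaving out any one MUTZ-1 library, SKM-1 control 2 (-0.09) or SKM-1 knockdown library 1 or 2 (-0.10 and -0.09). Over all 21 it lay between -0.145 and -0.05. IDH1 made up 34.5% of the summed FPKM of the pair in MUTZ-1 controls and 25.1% after knockdown, and 57.4% and 46.8% in SKM-1. Its mean share was lower after knockdown in both lines.

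Among 17 genes of isocitrate and alpha-ketoglutarate metabolism, 11 fell and 1 rose in MUTZ-1, with a median of -0.11, and 7 fell and 8 rose in SKM-1, with a median of 0.05. IDH3A, a subunit of the NAD-dependent isocitrate dehydrogenase, fell in all 3 MUTZ-1 knockdown libraries from 136 ± 1.88 CPM (-0.44 ± 0.04 SE, edgeR adjusted p = 4.76e-25) and rose in SKM-1 by 0.18 ± 0.04. Its partner subunit IDH3G fell in SKM-1 from 97.4 ± 3.67 CPM to 53.4 ± 2.39 CPM (-0.87 ± 0.04 SE, edgeR adjusted p = 3.01e-49). Fumarase, FH, fell in MUTZ-1 (-0.32 ± 0.04), and in SKM-1 it rose from 166 to 275 CPM (0.73 ± 0.03).

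EZH2 (chromosome 7, 148807383 to 148884321, minus strand) rose in both lines and was the gene of the 10 with the largest rise in SKM-1. SKM-1 controls stood at 122, 120.5 and 123 CPM and knockdown libraries at 214, 216 and 211 CPM. No libraries overlapped, and the level reached 176% of control with a 95% interval of 168% to 184% (0.81 ± 0.03 SE, edgeR adjusted p = 1.98e-71). The median gene of chromosome 7 rose by 0.34 in this comparison, and EZH2 stood 0.47 above it. In MUTZ-1 the values were 353, 342 and 340.5 CPM and 398, 388 and 400.5 CPM, a smaller rise without overlap (0.20 ± 0.02 SE, edgeR adjusted p = 2.96e-13).

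Among the other PRC2 genes, EZH1, EED and SUZ12 changed in opposite directions in the lines. Changes over the list in SKM-1 ran from -1.46 to 0.96, and falls larger than that of EZH1 are not described here. EZH1, the second catalytic subunit, fell in SKM-1 from 116 ± 1.01 CPM to 64.2 ± 2.18 CPM (-0.86 ± 0.04 SE, edgeR adjusted p = 1.93e-53) and rose in MUTZ-1 by 0.31 ± 0.04. EED, which reads the mark that PRC2 sets, rose in SKM-1 from 35.4 ± 0.236 CPM to 68.8 ± 1.19 CPM (0.96 ± 0.05 SE, edgeR adjusted p = 3.33e-46), and SUZ12, the scaffold of the complex, from 83.4 ± 0.804 CPM to 119 ± 4.1 CPM (0.51 ± 0.04 SE, edgeR adjusted p = 1.38e-31). In MUTZ-1 EED and SUZ12 fell (-0.13 ± 0.05 and -0.15 ± 0.03), the call of EED being lost in 12 of 21 alternatives, among them leaving out any one MUTZ-1 library but knockdown library 1 (-0.07 without knockdown library 3). The share of EZH2 in the summed FPKM of EZH1 and EZH2 was 43.9% in SKM-1 controls and 71.3% after knockdown. In MUTZ-1 it was 76.5% and 75.1%. Of 12 tested PRC2 genes other than EZH2, 7 rose and 5 fell in SKM-1 and 3 rose and 6 fell in MUTZ-1.

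KDM6A, the demethylase that opposes EZH2 (chromosome X, 44873177 to 45112602, plus strand), rose in SKM-1 from 49.6, 49.6 and 51.6 CPM to 59.2, 60.6 and 55.0 CPM (0.21 ± 0.05 SE, edgeR adjusted p = 2.36e-05). All knockdown libraries lay above all controls although the median gene of chromosome X fell, and relative to that median KDM6A stood at 0.68. With the gene length trend removed the rise was 0.37. In MUTZ-1 it went from 72.7, 68.8 and 75.4 CPM to 65.7, 67.8 and 68.4 CPM. The groups did not overlap by a narrow margin, and the change of -0.10 ± 0.04 SE, edgeR adjusted p = 0.0422, lost its call in 13 of 21 alternatives. These included leaving out control 1 or 3 or any one knockdown library of MUTZ-1, or knockdown library 1 or 2 of SKM-1, and the change was smallest without control 3 (-0.04, edgeR adjusted p = 0.554).

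KDM6B, which removes the same mark, fell in SKM-1 from 86.2 ± 1.93 CPM to 26.4 ± 1.28 CPM (-1.71 ± 0.05 SE, edgeR adjusted p = 1.59e-80). KDM6A accordingly made up 47.2% of the summed FPKM of the pair in SKM-1 controls and 77.2% after knockdown, and 75.8% and 72.2% in MUTZ-1. Among 15 genes of the KMT2 complexes and KDM6B, 8 rose and 3 fell in SKM-1, and 5 rose and 8 fell in MUTZ-1. ASH2L, a core subunit of these complexes, rose in SKM-1 from 108 ± 2.11 CPM to 238 ± 0.491 CPM (1.14 ± 0.03 SE, edgeR adjusted p = 1.82e-88).

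**Figure D4:**
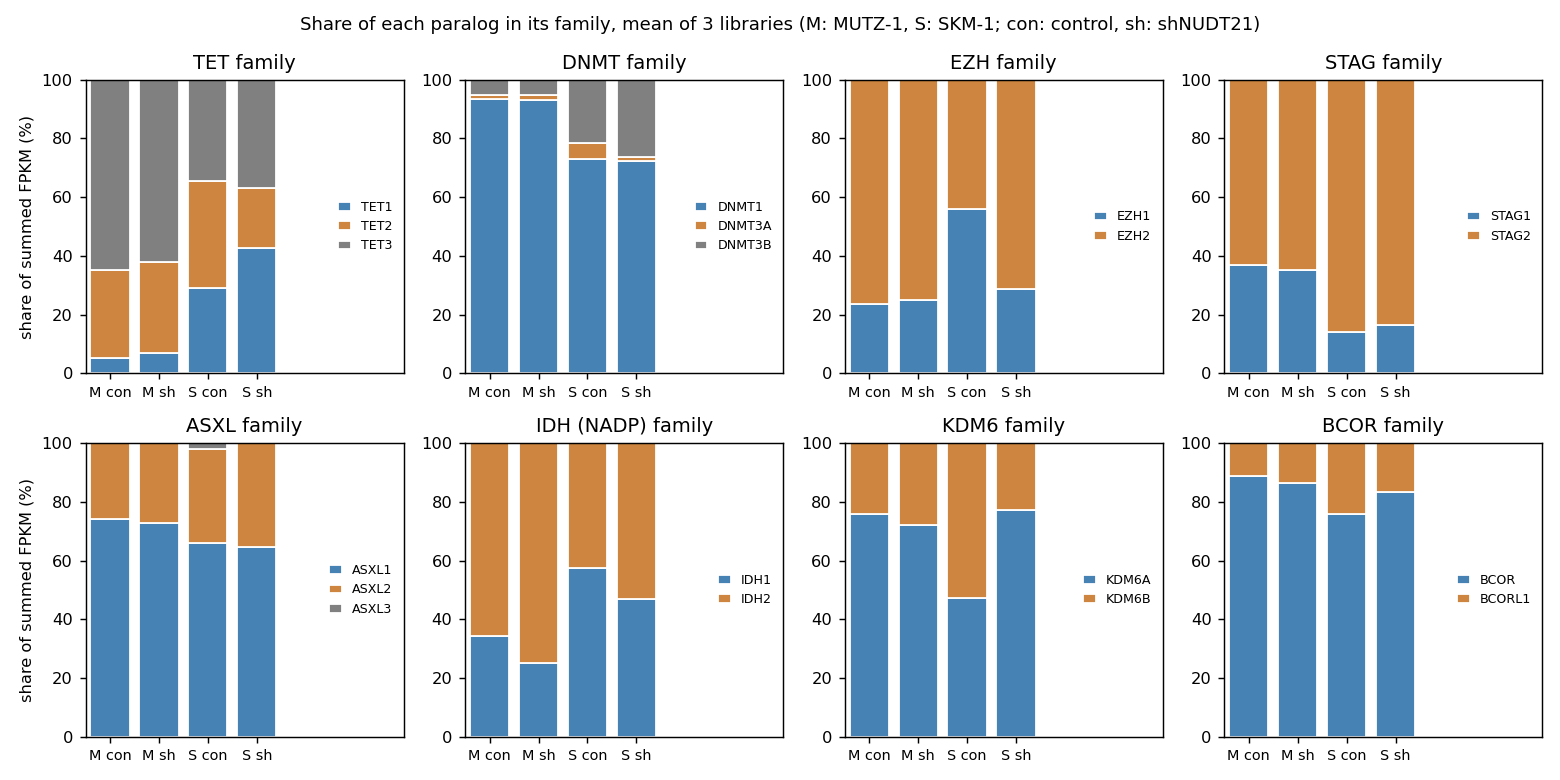
Share of each gene in the summed FPKM of its family in the 4 groups, mean of 3 libraries. EZH2 goes from 43.9% to 71.3% and KDM6A from 47.2% to 77.2% of their pairs in SKM-1, while the same shares stay between 72.2% and 76.5% in MUTZ-1.

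ASXL1 (chromosome 20, 32358330 to 32439319, plus strand) fell in SKM-1, and in MUTZ-1 its change did not pass the test. SKM-1 controls stood at 203, 198 and 201 CPM and knockdown libraries at 142, 144 and 141 CPM, without overlap (-0.49 ± 0.03 SE, edgeR adjusted p = 1.54e-39). Its change was -0.30 relative to chromosome 20 and -0.14 with the gene length trend removed. MUTZ-1 controls had 251, 248 and 241 CPM and knockdown libraries 233, 236 and 243 CPM, which overlapped (-0.06 ± 0.03 SE, edgeR adjusted p = 0.0771). Removing the length trend made that a call at -0.11 (adjusted p = 9.12e-05).

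The partners of ASXL1 around BAP1 included both directions. Of 10 genes, 3 rose and 6 fell in SKM-1, and 3 rose and 3 fell in MUTZ-1. The largest change of the list in SKM-1 was that of ASXL3, a paralog of ASXL1. It fell from 12.9 ± 1.01 CPM to 0.37 ± 0.11 CPM (-5.10 ± 0.26 SE, edgeR adjusted p = 2.78e-49). Not all falls larger than that of OGT are described here. KDM1B, a histone demethylase found with ASXL proteins, rose in SKM-1 from 50.3 ± 1.62 CPM to 124 ± 1.55 CPM (1.29 ± 0.04 SE, edgeR adjusted p = 3.16e-79). OGT, the O-GlcNAc transferase that modifies members of the complex, fell there from 548 ± 4.57 CPM to 259.7 ± 7.45 CPM (-1.08 ± 0.02 SE, edgeR adjusted p = 2.48e-110) and rose in MUTZ-1 by 0.22 ± 0.02.

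BCOR (chromosome X, 40049815 to 40177329, minus strand), a corepressor that carries a PRC1 variant to its targets, rose in both lines. In SKM-1 it went from 174, 167 and 182 CPM to 228, 226 and 242 CPM, without overlap (0.41 ± 0.03 SE, edgeR adjusted p = 1.35e-28). Relative to the median of chromosome X the rise was 0.88, the largest positive value of this kind among the 10 genes, and with the length trend removed it was 0.65. In MUTZ-1 the groups overlapped, at 129, 136 and 140.4 CPM and 139.9, 147 and 148 CPM. The rise there was 0.10 ± 0.03 SE, edgeR adjusted p = 0.00743, and 1 alternative, the removal of the length trend, ended the call (0.05, adjusted p = 0.163).

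Among 23 PRC1 genes, 9 rose and 10 fell in SKM-1 and 7 rose and 6 fell in MUTZ-1. RNF2, the ubiquitin ligase of the complex, rose in SKM-1 from 19.2 ± 1.56 CPM to 55.5 ± 2.72 CPM (1.53 ± 0.06 SE, edgeR adjusted p = 8.51e-61). PHC3, a Polyhomeotic subunit, fell from 159.8 ± 2.56 CPM to 43.7 ± 2.39 CPM (-1.87 ± 0.04 SE, edgeR adjusted p = 2.99e-86). Neither passed the test in MUTZ-1, at 0.10 ± 0.06 and -0.05 ± 0.03.

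PHF6 (chromosome X, 134373253 to 134428791, plus strand) rose in MUTZ-1 and fell in SKM-1. The MUTZ-1 values were 95.04, 97.1 and 98.9 CPM in controls and 122, 122 and 119.7 CPM after knockdown (0.32 ± 0.04 SE, edgeR adjusted p = 1.04e-15). In SKM-1 they were 143, 143 and 143 CPM and 103, 100.2 and 102 CPM (-0.49 ± 0.03 SE, edgeR adjusted p = 4.27e-32). The groups did not overlap in either line. Relative to the median gene of chromosome X the change in SKM-1 was -0.03, while the median of X in MUTZ-1 was 0.00.

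NuRD subunits and other reported partners of PHF6 counted 12 genes, of which 8 rose and 4 fell in SKM-1 (median 0.17), and 2 rose and 8 fell in MUTZ-1 (median -0.12). GATAD2A, a NuRD scaffold, rose in SKM-1 from 109 ± 3.64 CPM to 234 ± 5.91 CPM (1.10 ± 0.03 SE, edgeR adjusted p = 1.94e-88) and fell in MUTZ-1 (-0.19 ± 0.03). The remodeller CHD3 did the reverse, with 258 ± 0.567 CPM and then 125 ± 6.06 CPM in SKM-1 (-1.04 ± 0.03 SE, edgeR adjusted p = 6.20e-89) and a rise of 0.13 ± 0.03 in MUTZ-1.

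STAG2 (chromosome X, 123960212 to 124422664, plus strand) fell in both lines. In SKM-1 it went from 287, 286 and 279 CPM to 154, 155 and 163 CPM, and every knockdown library lay far below every control. The level was 55.4% of control with a 95% interval of 53.0% to 57.9% (-0.85 ± 0.03 SE, edgeR adjusted p = 4.49e-78), and relative to chromosome X it stood at -0.39. With the gene length trend removed the change was -0.68. In MUTZ-1 the fall was small, from 264, 255 and 262 CPM to 241, 236 and 241 CPM, again without overlap (-0.12 ± 0.03 SE, edgeR adjusted p = 2.65e-05).

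STAG1, which replaces STAG2 in part of the cohesin rings, fell too, from 45.2 ± 0.776 CPM to 30.2 ± 2.04 CPM in SKM-1 (-0.58 ± 0.05 SE, edgeR adjusted p = 1.52e-21) and from 147 ± 2.65 CPM to 126 ± 3.92 CPM in MUTZ-1 (-0.22 ± 0.04 SE, edgeR adjusted p = 1.38e-08). STAG2 therefore kept most of their summed FPKM, with 85.9% and 83.4% in SKM-1 and 63.1% and 64.7% in MUTZ-1. The ring subunits differed in SKM-1: SMC1A rose by 0.27 ± 0.02, and SMC3 and RAD21 had log2 fold changes of -0.30 ± 0.03 and -0.42 ± 0.02, both called. Over the alternatives SMC1A ran from 0.19 to 0.61 and SMC3 from -0.38 to -0.16, the upper value of each coming from the removal of the gene length trend. In MUTZ-1 SMC1A and SMC3 rose by 0.12 ± 0.02 and 0.11 ± 0.03. CDCA5, which holds cohesin on replicated DNA, fell in MUTZ-1 from 148 ± 2.37 CPM to 99.9 ± 3.94 CPM (-0.56 ± 0.03 SE, edgeR adjusted p = 1.37e-36) and rose in SKM-1 from 89.2 ± 3.38 CPM to 147 ± 0.536 CPM (0.72 ± 0.04 SE, edgeR adjusted p = 1.04e-50). Of 14 cohesin genes beside STAG2, 7 rose and 5 fell in SKM-1 and 3 rose and 6 fell in MUTZ-1.

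**Figure D5:**
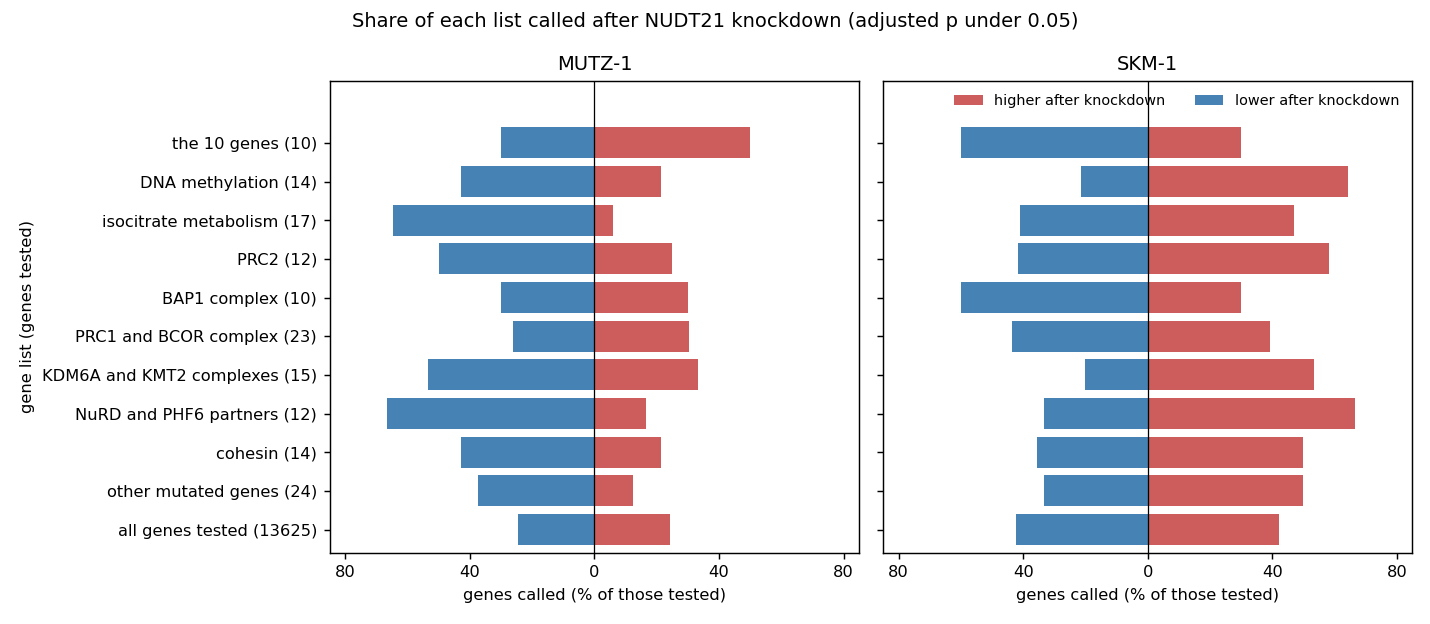
Share of the tested genes of each list called higher (right) or lower (left) after NUDT21 knockdown in MUTZ-1 and SKM-1, with all tested genes in the lowest row. In SKM-1 60% of the 10 genes were lower and 30% higher, against 42.3% and 42.1% of all genes.

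Other genes that are mutated in this disease but act in splicing, transcription or signalling were counted for comparison. Of 24 tested, 12 rose and 8 fell in SKM-1, and 3 rose and 9 fell in MUTZ-1. The splicing factor SRSF2 and the transcription factor RUNX1 rose in SKM-1 (0.79 ± 0.02 and 0.75 ± 0.05) and fell in MUTZ-1 (-0.28 ± 0.02 and -0.34 ± 0.05).

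The change after knockdown differed between the lines for each of the 10 genes when the difference itself was tested, as it did for 72.0% of all tested genes (36.4% more positive in MUTZ-1, 35.6% in SKM-1). It was of at least 2-fold for 2 of them, against 31.5% of all: DNMT3A at 1.47 ± 0.10 SE, edgeR adjusted p = 2.62e-34, and TET2 at 1.44 ± 0.08 SE, edgeR adjusted p = 4.81e-45, given as the change in MUTZ-1 minus that in SKM-1. With the gene length trend removed both were under 2-fold, at 0.93 and 0.97. PHF6 (0.82 ± 0.05), STAG2 (0.73 ± 0.04), IDH2 (0.51 ± 0.05), IDH1 (0.47 ± 0.06) and ASXL1 (0.44 ± 0.04) were also more positive in MUTZ-1. EZH2 (-0.61 ± 0.04), KDM6A (-0.32 ± 0.07) and BCOR (-0.31 ± 0.04) were more positive in SKM-1. With the median of each chromosome subtracted, the difference was 0.32 for PHF6, 0.24 for STAG2, 0.18 for IDH1, 0.24 for ASXL1 and -0.24 for EZH2. It was larger for BCOR and KDM6A, both at -0.81. The difference for ASXL1 was lost at 0.03 (adjusted p = 0.55) with the gene length trend removed. Called in opposite directions in the lines were 3 genes, DNMT3A, PHF6 and, with the unstable MUTZ-1 call given above, KDM6A, against 28.0% of all genes, and called in the same direction 4, EZH2, BCOR, IDH1 and STAG2, against 14.3%. Libraries of control and knockdown did not overlap for 9 of the 10 genes in SKM-1, as for 84.6% of all genes, and for 7 in MUTZ-1, as for 53.6%.

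The 4 genes on chromosome X did not share a direction in SKM-1. STAG2 and PHF6 fell while BCOR and KDM6A rose, so that relative to the X median of -0.47 the values ran from -0.39 for STAG2 to 0.88 for BCOR. In MUTZ-1 the same 4 ran from -0.12 ± 0.03 for STAG2 to 0.32 ± 0.04 for PHF6.

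To place each pattern over the 12 libraries, log2(CPM + 1) was centred per gene and the nearest profiles were sought by Euclidean distance among 10893 genes. Nearest to TET2 was SOX12, a transcription factor, at a distance of 0.25 (r = 0.991 over 12 libraries), and nearest to DNMT3A were RBL2 (0.26) and FOXO3 (0.30). EZH2 lay nearest to LRRC57 (0.21) and to WDR76 (0.22), ASXL1 to UBE2R2 (0.14) and STAG2 to STK35 (0.18). PHF6 lay nearest to RPL5 (0.16), a ribosomal protein, KDM6A to XRCC5 (0.16), IDH2 to ZNF83 (0.18), BCOR to THYN1 (0.21) and IDH1 to TXNDC5 (0.34). These distances and r describe profiles that share the same libraries and depth.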

How the data were processed

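Whole-number counts of reads per gene and FPKM values were deposited for the 12 libraries, and no value was altered. Per the submitters' processing notes, the authors used HISAT2, HTSeq and fastp with build GRCh38, and the labels' protocols name TRIzol and the TruSeq Stranded mRNA kit. Neither the annotation nor the strand setting nor the handling of multiply mapped reads is given in the sources used here, so overlapping genes could share reads. The deposited FPKM equalled the count over the library total and a length per gene (relative spread at most 7.72e-07), so both tables share the same reads.

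Genes were filtered with filterByExpr and tested with edgeR 4.0.16 (quasi-likelihood, robust, TMM factors 0.959 to 1.06) in R 4.3.3, with 1 mean per group over 12 libraries and 8 residual degrees of freedom. Benjamini-Hochberg adjustment covered all 13625 genes, and calls had an adjusted p under 0.05. Standard errors are the log2 fold change over the root of F. The biological coefficient of variation was 2.44%, and replicates differed by more than sampling noise (chi-square per degree of freedom 1.66 to 2.25). The code was tested on simulated counts. Alternatives were DESeq2 1.42.0, its size factors, library totals, no filter, the libraries of 1 comparison, a replicate block, log2(FPKM + 0.1) and log2(FPKM + 1) with limma 3.58.1, a gene length correction, each library left out and the chromosome median subtracted.

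Partner genes were named by rule: at most 3 per list and comparison, the largest changes among called genes with at least 5 CPM and no overlap. Some of these are given, plus some paralogs and direct partners of the 10 genes. For the likeness of profiles, up to 2 nearest genes were given. A gene of the list of other mutated genes is not reported here. The 10 genes and the lists were chosen with earlier results of these data known. Positions come from GENCODE release 29, matched by symbol for 17324 genes.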

Additional observations from a re-analysis of the deposited data

Results flagged for a closer look

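The change after knockdown differed between the lines, by a test of the difference itself, for each of the 10 genes. As the log2 change in MUTZ-1 minus that in SKM-1, the values were DNMT3A 1.465, TET2 1.44, PHF6 0.82, STAG2 0.73, IDH2 0.51, IDH1 0.47, ASXL1 0.44, BCOR -0.31, KDM6A -0.32 and EZH2 -0.61. NUDT21 itself differed, at 0.23, being reduced further in SKM-1. Over all tested genes 72.0% differed in this way.

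The same difference passed the test for 27 partner genes named in the report, ASXL3 not being counted. Some of them were named for having a large called difference, so that the choice fixes part of this count. Those more positive in MUTZ-1 numbered 12. By function they were the TET paralogs (TET1 0.37, TET3 0.40), the cohesin genes STAG1 0.36, SMC3 0.40 and RAD21 0.45, and ZBTB33 1.34, IDH3G 0.91, EZH1 1.165, OGT 1.295, PHC3 1.82, KDM6B 1.875 and CHD3 1.18. More positive in SKM-1 were 15. These were the DNA methylation genes DNMT1 -0.73, DNMT3B -1.08 and UHRF1 -1.13, the PRC2 genes EED -1.09 and SUZ12 -0.66, and IDH3A -0.625, FH -1.04, KDM1B -1.28, RNF2 -1.43, ASH2L -1.01, GATAD2A -1.29, SMC1A -0.16, CDCA5 -1.28, SRSF2 -1.07 and RUNX1 -1.09. The difference for SMC1A lost its call in 3 of 20 alternatives, library totals alone and both FPKM fits with limma (-0.03 in each). The whole-chromosome shifts in SKM-1 described in the report are contained in these differences.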

How the results depend on the processing

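Of 40 results on the 10 genes (10 genes in 4 comparisons), 34 kept their side of the threshold under all 20 or 21 alternatives that gave a test. Among these 34 only TET2 in MUTZ-1, which never passed the test, changed sign, running from -0.05 to 0.09. The other 6 were ASXL1, BCOR and KDM6A in MUTZ-1, IDH2 in SKM-1, the difference for ASXL1 and IDH2 between the control lines, with the values given in the report. With the median of the chromosome subtracted, BCOR, PHF6 and STAG2 turned from lower to higher in MUTZ-1 controls against SKM-1 controls (0.56, 0.36 and 0.80), since the X median was -0.92. With the gene length trend removed, TET1 and TET3 turned to 0.59 and 0.0655 in SKM-1, and their differences between the lines to -0.39 and -0.26. Of 85 results on NUDT21 and the partner genes other than ASXL3, 72 were unchanged in call, and in direction wherever a value passed the test. Some of the 72 that never passed the test changed sign, such as UHRF1 in MUTZ-1 (-0.03 to 0.03). Library totals alone moved the median of all genes by 0.128 in the difference and by -0.136 between the control lines. Replicate numbers did not mark pairs: deviations of same-numbered libraries correlated at -0.05 to 0.06 and of others at -0.05 to 0.05. With the replicate block, 3279 genes were higher and 3333 lower in MUTZ-1 and 5714 and 5747 in SKM-1, and no call on the 10 genes changed. The lowest counts in a library were 337 for DNMT3A and 477 for TET2, where counting error is not small beside the spread between libraries.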
